A study of Homo sapiens with 4 samples.

Results

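The genes described here are 36 genes that make, store and burn fatty acids, taken by name from an RNA sequencing table of 60617 gene IDs. All 36 names were found in the table, each on a single row. They were split by role into 12 genes of fatty acid synthesis, 5 of activation and transport, 7 of storage, 9 of lipolysis and oxidation, and 3 transcriptional regulators. The table holds 4 libraries from 2 human prostate cancer cell lines. 22Rv1 comes from a prostate carcinoma xenograft. PC3 comes from a bone metastasis and grows without androgen. Untreated and morusin-treated cells of each line were collected at 6 h, with 75 µM morusin for 22Rv1 and 46 µM for PC3. Morusin is a prenylated flavone of mulberry root bark. Serum and antibiotics were the same for all groups, but 22Rv1 was grown in RPMI and PC3 in F12, so line, medium and dose cannot be told apart.

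Cells build fatty acids from cytosolic acetyl-CoA. ATP citrate lyase (ACLY) and acetyl-CoA synthetase (ACSS2) supply it, acetyl-CoA carboxylase (ACACA) turns it into malonyl-CoA, and fatty acid synthase (FASN) joins the units into palmitate. SREBP-1, the product of SREBF1, activates many of these genes, and raised lipogenic enzymes are a known trait of prostate cancer cells. Stored triglyceride is released by lipases, and mitochondria burn the fatty acids after the carnitine palmitoyltransferases carry them in.

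Each group held 1 library, so no test could be made within a line and no value has a replicate error. FPKM counts fragments scaled to transcript length and library size, so it is a level per length. Changes are log2 ratios of treated FPKM + 1 over untreated FPKM + 1, a scale on which changes of low genes are understated. Depths inferred from the low values were 19.1 to 40.6 M read pairs per library, and are rough. At these depths the counting error of a member's log2 ratio had a median of 0.055 in 22Rv1 and 0.042 in PC3 (33 members each). It refers to FPKM without the added 1 and covers counting error only. In bulk RNA, fewer cells with a transcript and less of it per cell cannot be told apart. The labelled lines matched their markers, with KLK2 and KLK3 above 1 FPKM in both 22Rv1 libraries and listed at 0 in both PC3 libraries. HOXB13, another luminal marker, was at 86.5 FPKM in untreated 22Rv1 and 175 in untreated PC3. Of the 4 epithelial markers, KRT8, KRT18 and EPCAM were above 1 FPKM in every library, and CDH1 was at 86.3 FPKM in untreated 22Rv1 and 0.190 in untreated PC3. The 9 leukocyte, fibroblast and endothelial markers summed to 1.31 to 42.6 FPKM, mostly CD68 in PC3, where it was at 26.0 FPKM untreated and 39.9 treated while the leukocyte marker PTPRC was at 0.052 and 0.025. U1 small nuclear RNA, which lacks a poly(A) tail, summed to 4.85 FPKM in untreated and 995 in treated 22Rv1 and to 3.31 and 17.2 in PC3. Mitochondrial mRNAs made up 6.33% and 3.13% of the FPKM sum in 22Rv1 and 4.43% and 2.53% in PC3. The part of either in the members' values was not tested.

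Before treatment the lines differed widely in lipogenic transcripts, and 22Rv1 had the higher levels of the core synthesis enzymes. FASN, on chromosome 17 (GRCh38 chr17:82078333-82098332, minus strand), was at 224 FPKM in untreated 22Rv1 and 35.8 in untreated PC3, a ratio of 6.11 on the FPKM + 1 scale. ACACA (chr17:37084988-37406818, minus strand) was at 41.1 and 10.4 FPKM. SCD, the stearoyl-CoA desaturase that makes oleate (chr10:100347124-100364834, plus strand), was at 102 and 32.2 FPKM. These enzymes of the main route were all more than 3-fold higher in untreated 22Rv1. ELOVL6, which extends palmitate to stearate, was at 30.5 and 2.48 FPKM, a ratio of 9.05, and ELOVL7, another elongase, was at 3.99 and 0.241 FPKM. SREBF1 itself was at 38.6 FPKM in untreated 22Rv1 and 10.5 in untreated PC3.

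Other steps were higher in PC3. PPARG, a nuclear receptor of fat storage, was at 50.4 FPKM in untreated PC3 and listed at 0 in untreated 22Rv1. MGLL, the lipase that splits monoglycerides, was at 37.1 FPKM in PC3 and 1.52 in 22Rv1. ACSL4, an acyl-CoA synthetase that prefers arachidonate, was at 20.3 and 0.839 FPKM. The lipid droplet coats PLIN3 and PLIN2 were also PC3 genes, PLIN3 at 116 FPKM against 14.5 and PLIN2 at 13.3 against 1.82. AGPAT2, an acyltransferase of glycerolipid synthesis, was at 31.3 against 7.35 FPKM. FABP4, a fatty acid carrier of adipocytes, was at 5.25 FPKM in untreated PC3 and listed at 0 in both 22Rv1 libraries, while the adipocyte markers ADIPOQ and LEP were at 0 in all 4. LIPE, hormone-sensitive lipase, was the reverse, at 2.15 FPKM in 22Rv1 and 0.404 in PC3.

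Of the 35 members at 1 FPKM or more in at least 1 untreated library, 10 had a 2-fold or larger excess in 22Rv1 (28.6%) and 9 had one in PC3 (25.7%). Among all 14352 genes so compared the shares were 19.8% and 19.2%, or 39.0% either way. By role, the 22Rv1 excess reached 2-fold for 6 of the 12 synthesis genes and the PC3 excess for 2. Their median log2 ratio, 22Rv1 over PC3, was 0.95, against 0.11 for all genes. The 2 exceptions were FADS2, the delta-6 desaturase, at 86.8 FPKM in PC3 against 41.4, and ACSS2, at 24.2 against 9.49. None of the 7 storage genes was at least 2-fold higher in 22Rv1 and 3 were in PC3, with a median of -0.59. By count, the further lists of these routes described below ran the other way. Among 25 further storage genes, the 22Rv1 excess reached that size for 9 and the PC3 excess for 6. For 26 further synthesis genes these counts were 3 and 6. The medians of the further lists, -0.28 for storage and 0.45 for synthesis, had the same sign as those of the members. Among the members, oxidation enzymes were closer. HADHA and HADHB, the subunits of the mitochondrial trifunctional protein, were at 85.2 and 28.3 FPKM in 22Rv1 and at 83.4 and 28.2 in PC3. CPT1A, the gatekeeper of fatty acid import into mitochondria, was at 24.0 and 25.2 FPKM. CPT2, the second carnitine palmitoyltransferase, was more than 2-fold higher in 22Rv1, at 20.1 against 7.86 FPKM, as was ACADM, medium-chain acyl-CoA dehydrogenase, at 37.1 against 17.1 FPKM.

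**Figure D1:**
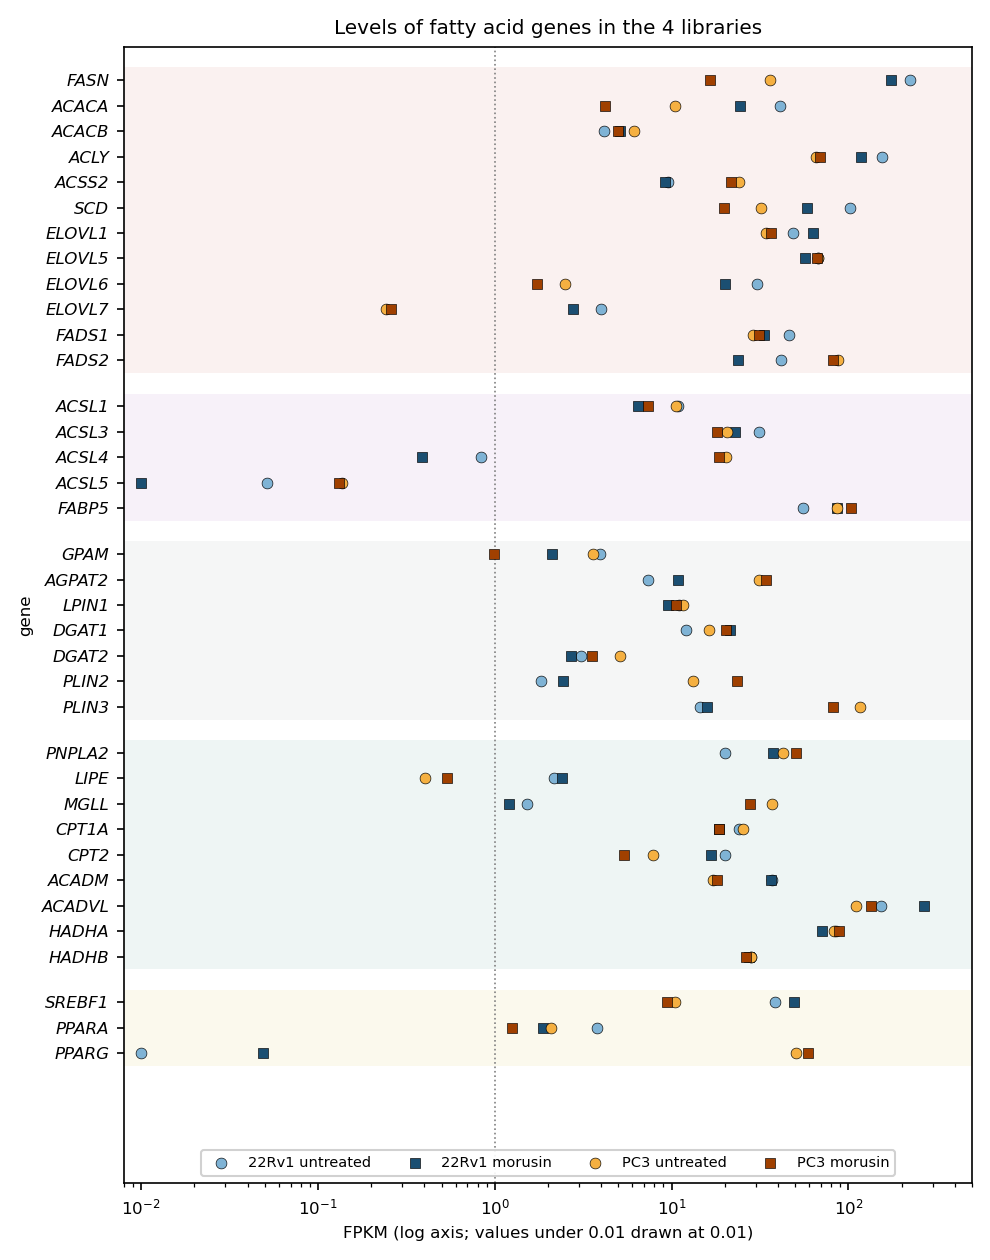
FPKM (log axis) of the 36 genes in each of the 4 libraries, grouped by role from synthesis at the top to regulators at the bottom; circles are untreated and squares treated libraries, and values under 0.01 are drawn at 0.01. For FASN both 22Rv1 points (224 and 174 FPKM) lie to the right of both PC3 points (35.8 and 16.6 FPKM), and for PPARG and MGLL the order is the opposite.

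After morusin, the carboxylase ACACA, the synthase FASN and the desaturase SCD were lower in the treated library of both lines (FASN in 22Rv1 was not, once a trend on transcript length was removed), together with GPAM, the mitochondrial acyltransferase that starts triglyceride synthesis. ACACA was at 41.1 FPKM untreated and 24.2 treated in 22Rv1, and at 10.4 and 4.19 in PC3. FASN was at 224 and 174 FPKM in 22Rv1 and at 35.8 and 16.6 in PC3. SCD was at 102 and 58.5 FPKM in 22Rv1 and at 32.2 and 19.9 in PC3. GPAM was lower still in PC3, at 3.61 FPKM untreated and 0.995 treated, and was at 3.93 and 2.11 in 22Rv1. Log2 changes of these 4 genes ran from -0.36 for FASN to -0.79 for SCD in 22Rv1 and from -0.67 for SCD to -1.21 for GPAM in PC3. For all 4, treated levels were below untreated ones within each line. FASN, ACACA and SCD in treated 22Rv1 were nevertheless above either PC3 library.

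In 22Rv1, no member was at least 2-fold higher or lower among the 33 at 1 FPKM or more in at least 1 of its libraries, while 3.40% of all 13337 genes lay past 2-fold upward and 1.02% downward (4.42% either way). In PC3, 3 of 33 members were at least 2-fold lower (9.09%), against 2.64% of all 12898 genes, and none was past 2-fold upward, against 1.22% (3.86% either way). These 3 were GPAM, ACACA and FASN, with log2 changes of -1.21, -1.14 and -1.07. None of the 3 stayed at 2-fold with the length trend described below removed or with 5 added in place of 1, and only GPAM did with library medians made equal. Members under the 1 FPKM limit in 22Rv1 were ACSL4, ACSL5 and PPARG, and in PC3 they were ELOVL7, LIPE and ACSL5. ACSL5, an acyl-CoA synthetase, was at most 0.137 FPKM in any library.

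Among the other synthesis genes, the signs of ACLY, FADS1, FADS2, ELOVL1, ELOVL5, ACACB and ACSS2 in PC3 turned under at least 1 alternative of scaling or length. ACLY was at 154 FPKM untreated and 118 treated in 22Rv1, and at 65.2 and 69.3 in PC3. FADS1, the delta-5 desaturase, was at 46.1 and 33.4 FPKM in 22Rv1 and at 28.7 and 31.2 in PC3, and FADS2 was at 41.4 and 23.9 and at 86.8 and 81.9. Both desaturases were thus lower in treated 22Rv1, with log2 changes of -0.45 and -0.77, and within 0.12 of 0 in PC3. ELOVL6 was lower in both treated libraries, at 20.0 FPKM in 22Rv1 and 1.73 in PC3. ELOVL7 was at 2.76 FPKM treated in 22Rv1. ELOVL5, which elongates polyunsaturated chains, was at 67.5 and 56.9 FPKM in 22Rv1 and at 67.5 and 66.7 in PC3. ELOVL1, an elongase of very long saturated chains, was the reverse, at 48.5 and 63.2 FPKM in 22Rv1 and 34.2 and 36.6 in PC3. ACACB, the mitochondrial carboxylase whose malonyl-CoA restrains CPT1, was at 4.13 and 5.11 FPKM in 22Rv1 and 6.16 and 4.98 in PC3, opposite in sign between the lines. ACSS2 differed by 0.14 or less on the log2 scale in either line.

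Acyl-CoA synthetases activate free fatty acids for every later use. ACSL1 was lower in both treated libraries, at 10.9 FPKM untreated and 6.44 treated in 22Rv1 and at 10.6 and 7.36 in PC3. ACSL3, which serves lipid droplet growth, was at 31.4 and 22.9 FPKM in 22Rv1 and 20.6 and 18.1 in PC3. ACSL4 was at 18.6 FPKM in treated PC3 and 0.385 in treated 22Rv1. In PC3 the signs of ACSL3 and ACSL4 turned with the length trend described below removed. FABP5, a cytosolic fatty acid carrier, was higher in both treated libraries, at 55.6 and 86.3 FPKM in 22Rv1 and 86.4 and 104 in PC3. FABP5 has processed pseudogenes, so its values are uncertain.

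Among the storage genes, the acyltransferases split. DGAT1, which completes triglyceride, was at 12.0 FPKM untreated and 21.4 treated in 22Rv1 and at 16.2 and 20.3 in PC3, while DGAT2, which does the same on a different fold, was at 3.06 and 2.69 and at 5.12 and 3.57. DGAT1 overlaps 139 exonic bases of HSF1 on the other strand, at 36.6 to 78.1 FPKM and higher in both treated libraries. The kit does not mark strand, so reads from the shared bases cannot be told apart, and the part of HSF1 in the DGAT1 values was not tested. AGPAT2 was at 10.8 FPKM treated in 22Rv1 and 34.2 in PC3, above its untreated levels, although the PC3 sign turned under another scaling or length setting. LPIN1, a phosphatidate phosphatase, was at 11.0 and 9.55 FPKM in 22Rv1 and 11.6 and 10.7 in PC3. Its sign turned in both lines with the length trend removed. The droplet coat PLIN2 was at 13.3 and 23.4 FPKM in PC3, a log2 change of 0.77, and at 1.82 and 2.43 in 22Rv1. PLIN3 was at 116 and 81.4 FPKM in PC3 and 14.5 and 15.8 in 22Rv1. The droplet coats of PC3 therefore differed in direction, PLIN2 being higher and PLIN3 lower in the treated library.

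On the side of breakdown, the first lipase of triglyceride and the first dehydrogenase of long chains were higher in both treated libraries. PNPLA2, adipose triglyceride lipase (chr11:818902-825573, plus strand), was at 19.9 FPKM untreated and 37.6 treated in 22Rv1 and at 42.6 and 50.8 in PC3. ACADVL, very long chain acyl-CoA dehydrogenase (chr17:7217125-7225273, plus strand), was at 153 and 266 FPKM in 22Rv1 and 111 and 135 in PC3. Their log2 changes were 0.88 and 0.80 in 22Rv1 and 0.25 and 0.28 in PC3. The carnitine palmitoyltransferases split in 22Rv1, with CPT1A and CPT2 lower in the treated library and the forms CPT1B and CPT1C higher. In PC3, CPT1A and CPT2 were also lower. There the log2 ratios of CPT1B and CPT1C, without the added 1, were 0.18 and 0.088. Their counting errors were 0.12 and 0.061, so a rise of these forms in PC3 was not resolved. CPT1A was at 24.0 and 18.6 FPKM in 22Rv1 and 25.2 and 18.6 in PC3, and CPT2 at 20.1 and 16.6 and at 7.86 and 5.37. MGLL was lower as well, at 37.1 and 27.8 FPKM in PC3 and 1.52 and 1.20 in 22Rv1, where its sign turned with the length trend removed. LIPE was at 2.15 and 2.41 FPKM in 22Rv1 and at 0.404 and 0.534 in PC3.

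Among further enzymes of the oxidation spiral, ACADM was at 37.1 FPKM untreated and 36.5 treated in 22Rv1 and at 17.1 and 18.0 in PC3. HADHB was at 28.3 and 27.5 FPKM in 22Rv1 and at 28.2 and 26.5 in PC3. HADHA was at 85.2 and 71.1 FPKM in 22Rv1 and at 83.4 and 88.8 in PC3. HADHA and HADHB lie on opposite strands of chromosome 2, and their annotated spans overlap. The start of each lies inside the other gene, and the starts are 1556 bases apart. The log2 changes of HADHA and HADHB were -0.26 and -0.04 in 22Rv1 and 0.09 and -0.09 in PC3. FADS1 and FADS2 lie on opposite strands of chromosome 11 and share 490 exonic bases, so part of their reads cannot be told apart.

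**Figure D2:**
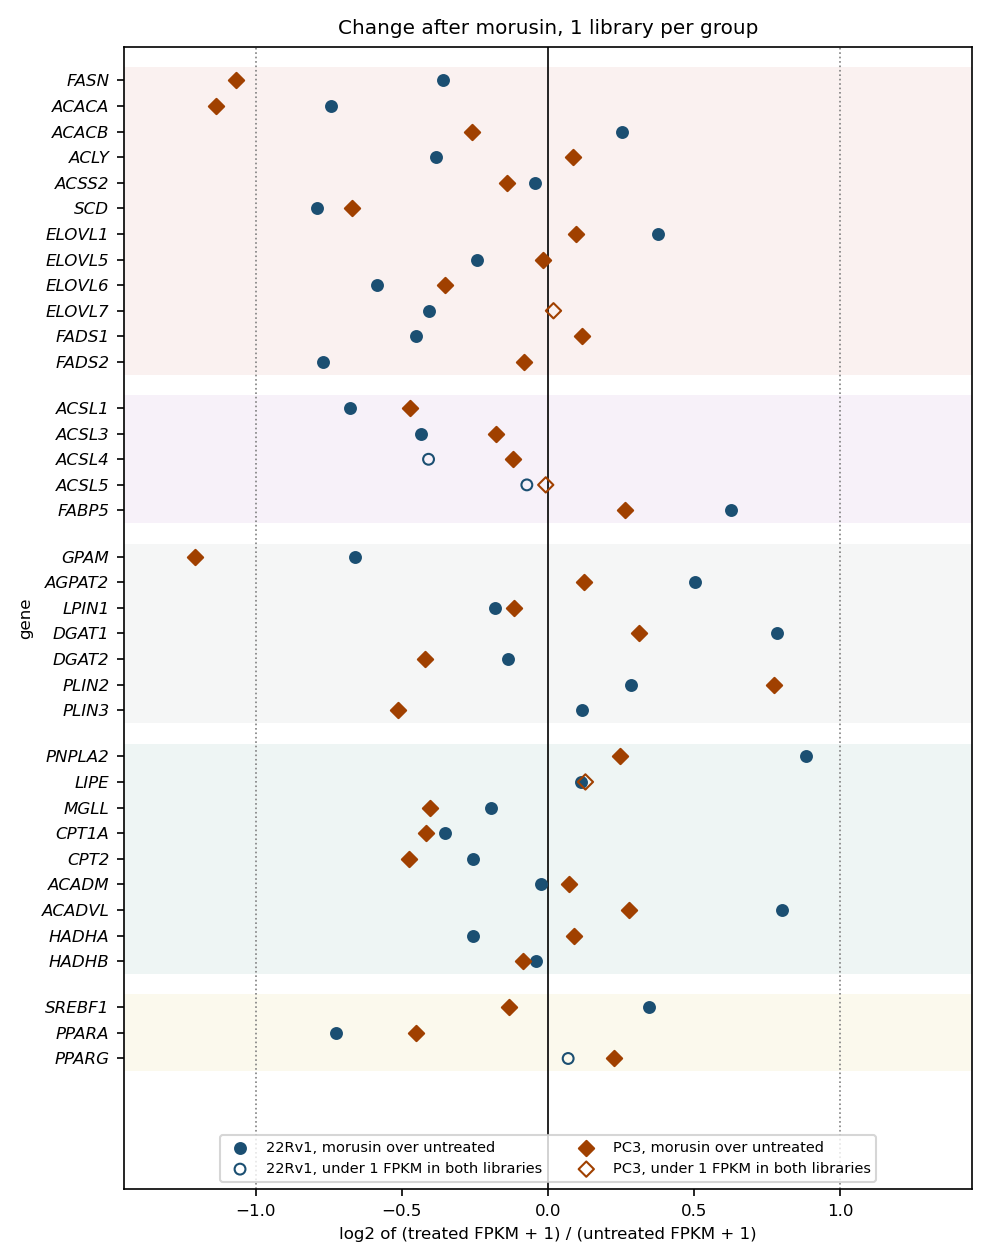
Log2 change of FPKM + 1, treated over untreated, for each of the 36 genes in 22Rv1 (circles) and PC3 (diamonds), 1 library per group; open symbols are genes under 1 FPKM in both libraries of that line and the dotted lines mark 2-fold. GPAM, ACACA and FASN in PC3 are the filled points beyond the dotted line on the left, and no point lies beyond the one on the right.

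The regulators differed in direction. SREBF1 was at 38.6 FPKM untreated and 49.3 treated in 22Rv1 and at 10.5 and 9.47 in PC3. Its log2 change in 22Rv1 was 0.35 while those of FASN, ACACA and SCD there were -0.36, -0.74 and -0.79. SREBF1 shares 556 exonic bases with RAI1 on the other strand, which was at 6.23 to 16.3 FPKM. PPARA, the nuclear receptor of fatty acid oxidation, was lower in both treated libraries, at 3.77 and 1.88 FPKM in 22Rv1 and 2.07 and 1.25 in PC3. PPARG was at 50.4 and 59.1 FPKM in PC3 and at 0.0490 FPKM in treated 22Rv1.

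Set side by side, the synthesis genes had a lower median change than the lipolysis and oxidation genes in both lines, although in PC3 this order turned once a trend on transcript length was removed. In 22Rv1 the medians were -0.40 for the 12 synthesis genes and -0.04 for the 9 lipolysis and oxidation genes, beside -0.01 for all genes, and 10 of 12 and 6 of 9 were below 0. In PC3 they were -0.14 for 11 synthesis genes and -0.01 for 8 lipolysis and oxidation genes, beside -0.05 for all genes, with 8 of 11 and 4 of 8 below 0. All genes split 50.7% below 0 in 22Rv1 and 55.8% in PC3. With the 3 lipases left out, the oxidation median in 22Rv1 was -0.15. Among the synthesis genes in PC3, ACLY, FADS1 and ELOVL1 were above 0 while ACACA and FASN were at least 2-fold lower.

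Transcript length moved with these values. Longer transcripts had lower changes across all genes, with a correlation of the log2 change with log2 length of -0.47 over 13286 genes in 22Rv1 and -0.31 over 12860 in PC3, as a description across genes that share the same libraries. Among the members it was -0.63 and -0.65 (33 each). The synthesis genes had a median transcript of 4432 bases and the lipolysis and oxidation genes one of 3037 bases. After the trend on length was removed, the medians in 22Rv1 were -0.23 and -0.08. In PC3 they were -0.055 and -0.069, so the difference between the sets was 0.014. FASN, with a transcript of 8565 bases, was then at 0.06 in 22Rv1 and -0.81 in PC3. SCD was at -0.52 and -0.51, ACACA at -0.29 and -0.88, GPAM at -0.32 and -0.99, and FADS2 in 22Rv1 at -0.67. PPARA, the longest member at 9995 bases, went from -0.73 to -0.28 in 22Rv1 and from -0.45 to -0.19 in PC3. ACSL1 was then at -0.52 and -0.39, and CPT1A at -0.09 and -0.26. Among genes higher in treated 22Rv1, DGAT1 was at 0.89, PNPLA2 at 0.79 and ACADVL at 0.68 there, while FABP5, the shortest at 986 bases, was at 0.20. ACACB, at 9360 bases, was at 0.69 in 22Rv1 and 0.00 in PC3.

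**Figure D3:**
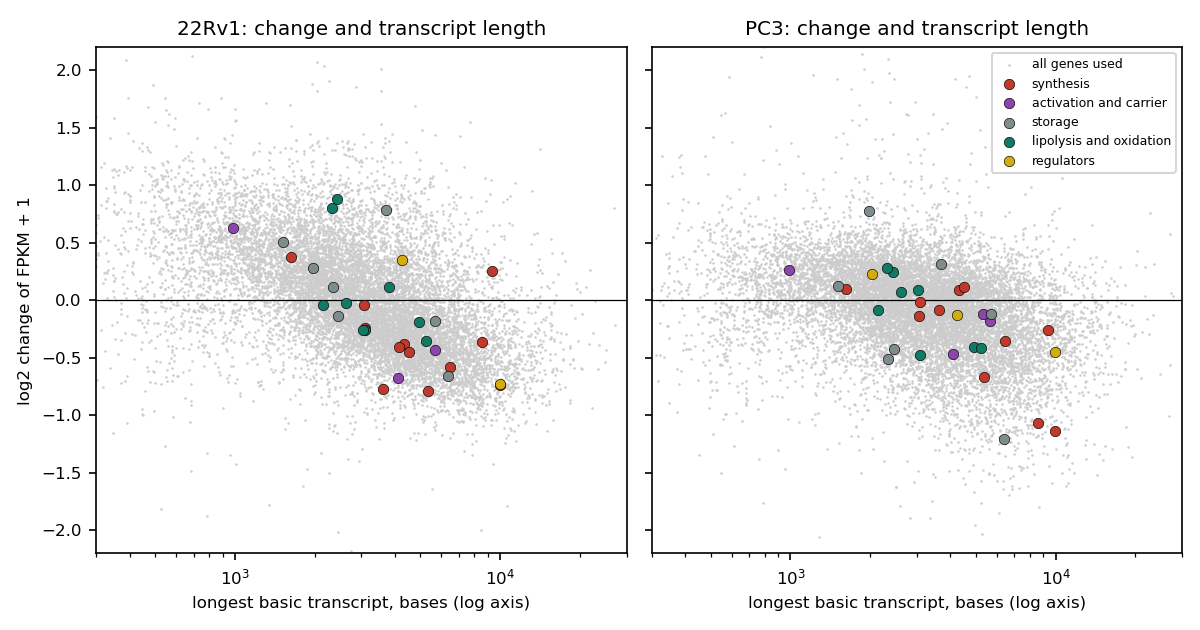
Log2 change of FPKM + 1 against the length of the longest annotated transcript (bases, log axis) for all genes used (grey) and the members (coloured by role) in 22Rv1 and PC3. In both panels the cloud of all genes slopes downward (r = -0.47 and -0.31), and FASN, ACACA and GPAM lie at its long end. Grey points outside the drawn range are not shown.

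Whether a change was shared by the lines was the comparison that left a degree of freedom for a test, with the line as a block in limma on log2(FPKM + 1). The spread it uses is the disagreement between the lines, drawn toward that of all genes at a similar level. Each SE below is therefore not the gene's own disagreement alone. There was 1 library per group, and the doses differ. Of 13971 genes, 46 were called higher (0.329%) and 33 lower (0.236%, or 0.565% in all) at an adjusted p under 0.05, and none of the 35 members tested was called in either direction. At an unadjusted p under 0.05 there were 5 members higher and 6 lower, 11 of 35, where 18.5% of all genes were under that value. ACACA came first, with a shared log2 change of -0.94 ± 0.21 (SE of the limma fit, 2 lines) and an adjusted p of 0.113, and was lower in 2 of 2 lines. GPAM was at -0.93 ± 0.22 (adjusted p = 0.116), SCD at -0.73 ± 0.18 (adjusted p = 0.130) and FASN at -0.71 ± 0.21 (adjusted p = 0.157). PPARA and ACSL1 were the others lower at that unadjusted level, at -0.59 ± 0.20 and -0.57 ± 0.21. On the higher side were PNPLA2 at 0.57 ± 0.21, DGAT1 at 0.55 ± 0.21, ACADVL at 0.54 ± 0.20, PLIN2 at 0.53 ± 0.23 and FABP5 at 0.44 ± 0.19, with adjusted p from 0.204 to 0.265. No member's shared change therefore reached an adjusted p under 0.05 in limma after adjustment over all genes. With each library rescaled to the same FPKM sum, 6 members were called lower (ACACA, GPAM, SCD, FASN, PPARA and ACSL1), but then 9.06% of all genes were called lower and the median of all genes moved by -0.16 in 22Rv1 and -0.08 in PC3.

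Of the 31 members above the limit in both lines, 17 were below 0 in both, 7 above 0 in both, 4 below 0 in 22Rv1 and above in PC3, and 3 the reverse. The signs matched for 77.4% of them and for 67.8% of all 11235 genes. Over the alternatives of processing given below, the sign held for 25 of 33 members in 22Rv1 and 18 of 33 in PC3. Of the genes below 0 in both lines, FASN and MGLL turned in 22Rv1, and ELOVL5, FADS2 and ACSL3 in PC3. ACSS2, LPIN1 and HADHB turned in both lines. Of those above 0 in both, ELOVL1 and AGPAT2 turned in PC3. The gap between the lines, PC3 minus 22Rv1, reached 2-fold for no member, where it did so for 1.02% of all genes upward and 3.20% downward (4.22% in all). With no residual degrees of freedom, this gap could not be tested. The widest negative gaps were those of FASN at -0.71, PNPLA2 at -0.64 and PLIN3 at -0.63, and the widest positive ones those of FADS2 at 0.69, FADS1 at 0.57 and PLIN2 at 0.49.

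**Figure D4:**
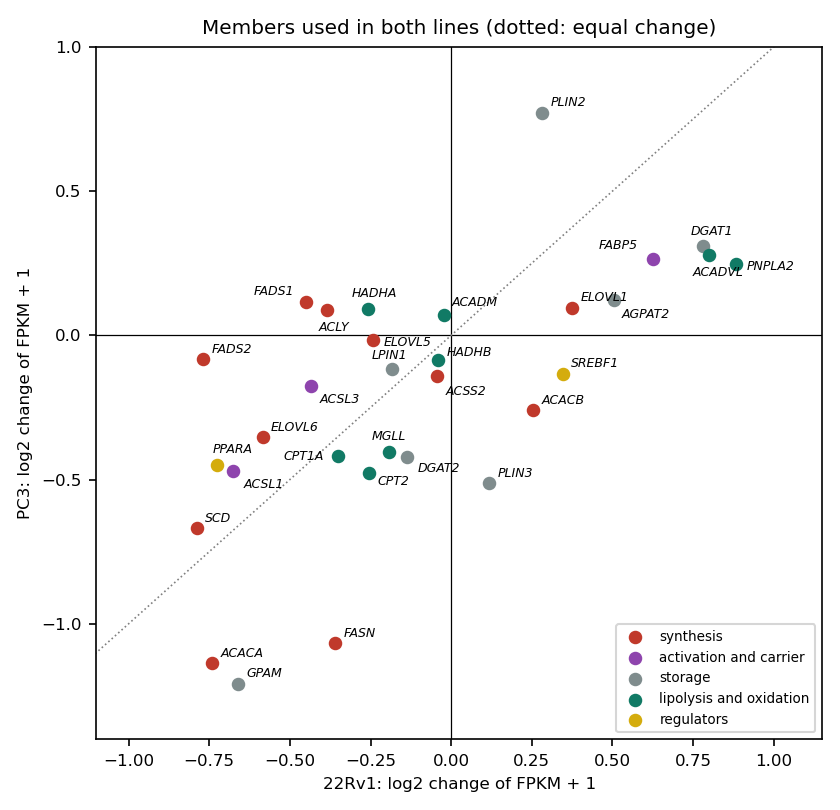
Log2 change of FPKM + 1 in PC3 against that in 22Rv1 for the 31 genes used in both lines, coloured by role; the dotted line marks equal change. SCD, GPAM, ACACA and FASN lie in the lower left, PNPLA2, ACADVL and DGAT1 in the upper right, and SREBF1, ACACB and PLIN3 in the lower right.

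Promoters of 3 genes that stood at either end of the shared order are shown, since SREBP-1 and its partner NF-Y are known to act on lipogenic promoters near the start. Each is the RefSeq stretch of 300 bases (250 before and 50 after the start) on GRCh38.p14, read 5′ to 3′ along the gene. Capitals mark the sterol regulatory element TCACNCCAC or the CCAAT box that NF-Y binds, on either strand.
SCD (chr10:100346983-100347282, plus strand): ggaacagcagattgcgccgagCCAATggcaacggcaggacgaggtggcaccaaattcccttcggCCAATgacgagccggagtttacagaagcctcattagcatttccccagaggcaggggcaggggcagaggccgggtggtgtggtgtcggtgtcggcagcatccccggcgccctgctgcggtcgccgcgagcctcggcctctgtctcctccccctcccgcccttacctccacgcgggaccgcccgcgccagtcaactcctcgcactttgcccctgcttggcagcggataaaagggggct
GPAM (chr10:112183716-112184015, minus strand): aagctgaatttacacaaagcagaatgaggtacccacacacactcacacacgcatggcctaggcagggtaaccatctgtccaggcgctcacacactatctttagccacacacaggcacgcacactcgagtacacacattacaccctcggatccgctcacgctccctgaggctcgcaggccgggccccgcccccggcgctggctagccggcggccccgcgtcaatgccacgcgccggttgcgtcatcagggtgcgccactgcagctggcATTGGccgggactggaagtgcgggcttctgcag
PNPLA2 (chr11:818664-818963, plus strand): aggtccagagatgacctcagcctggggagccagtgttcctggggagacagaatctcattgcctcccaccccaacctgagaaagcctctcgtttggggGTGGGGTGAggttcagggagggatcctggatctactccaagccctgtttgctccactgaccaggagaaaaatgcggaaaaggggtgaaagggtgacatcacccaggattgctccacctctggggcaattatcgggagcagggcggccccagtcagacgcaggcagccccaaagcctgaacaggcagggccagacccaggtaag
The SCD stretch held 2 CCAAT boxes and GPAM 1, and PNPLA2 held 1 sterol element and no CCAAT box. These letters were then searched in all RefSeq promoters. Of the 36 members 31 matched, with 52 promoters, and FASN, MGLL, DGAT1, DGAT2 and FABP5 did not. CCAAT was in 18 of 52 member promoters (34.6%) and in 34.6% of all 35116. TCACNCCAC was in 2 of 52, those of ACSL1 and PNPLA2, and in 1.13% of all. The E-box CACGTG was in 2 of 52, those of ELOVL5 and PLIN2, and in 7.26% of all. These are counts of letters in a short window and do not identify bound sites. Only the form TCACNCCAC of the sterol element was searched, so a promoter without it is not shown to lack such an element.

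Further genes of these routes came from 3 lists totalling 104 genes. In 22Rv1, 78 of them were at 1 FPKM or more, 39 were above 0 and 39 below, with a median of -0.01. By list, with the length trend not removed, the medians were -0.15 for synthesis, -0.02 for storage and 0.07 for lipolysis and oxidation. Of the 78, 2 were at least 2-fold higher and none lower, beside 3.40% and 1.02% of all genes. CPT1B, the muscle form of the carnitine palmitoyltransferase, was at 9.03 FPKM untreated and 23.8 treated in 22Rv1, and at 3.24 and 3.68 in PC3. PLIN5, a droplet coat of oxidative tissue, was at 1.85 and 4.71 FPKM in 22Rv1, below the level set for naming genes, and is given because it completes the count. CPT1C, the brain form, was at 1.301 and 2.27 FPKM in 22Rv1 and 10.9 and 11.6 in PC3, and was named after its values were seen. In PC3, 80 were measured, 36 above 0 and 44 below, with a median of -0.03. The medians of the same lists there were -0.05, -0.25 and 0.05. Of the 80, 1 was at least 2-fold higher and none lower, beside 1.22% and 2.64% of all genes. That gene was INSIG1, which holds SREBP in the endoplasmic reticulum and is itself an SREBP target, at 2.14 FPKM untreated and 7.31 treated in PC3 and at 37.5 and 29.01 in 22Rv1. In the shared limma fit none of the 87 genes of these lists that were tested was called in either direction, and 9 had an unadjusted p under 0.05, beside 18.5% of all genes.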

How the data were processed

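Per the labels' protocols, libraries came from the TruSeq RNA kit v2, which selects poly(A) RNA and does not mark strand, and were read as pairs of 150 bases. The submitters' processing notes name Trimmomatic, HISAT2, StringTie and GRCh38, with versions and annotation not given in the sources used here. FPKM values were deposited by the authors for 60617 gene IDs in 4 columns, each named in the label of 1 library. FPKM is relative to each library's total, so abundant transcripts move all others.

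Symbols came from a gene name table (60261 IDs matched). Lengths, positions and overlaps came from GENCODE 29 on GRCh38, and promoters from RefSeq on GRCh38.p14. The length is that of the longest basic transcript. Depth was read from the step between low values of genes that have a single exon and 600 to 5000 bases, within 1.5%, and is rough.

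The 36 members, their roles, the further lists and the tests were chosen with earlier results of these data known. Changes within a line had no test, and 2-fold was the size reported. Genes needed 1 FPKM in at least 1 library compared, or in 2 of 4 for the shared fit. That fit used limma 3.58.1 (R 4.3.3) on line plus treatment, with the prior variance following mean level, and Benjamini-Hochberg adjustment at 0.05. It was run on simulated data with equal changes in both lines and independent noise. Those data held no length trend and no differences between the lines in the change, so they do not cover these features. The cell line in the labels pairs the libraries, and no replicate numbers are given. Some marker and pathway genes are not reported here. Named genes were all members, and other pathway genes at 5 FPKM and 2-fold. Other genes named were markers, overlapping genes or, where said, chosen after their values were seen. Alternatives were the pseudocount, the filter, 3 scalings, a length trend removed by a local fit, the line block, the prior trend and the makeup of the sets. Other steps ran in Python 3.11.15 (pandas 2.3.3).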

Additional observations from a re-analysis of the deposited data

Results flagged for a closer look

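For 5 members the treated library was on one side of the untreated one in 22Rv1 and on the other in PC3, each by more than its 95% counting interval. The difference between the lines was not tested, since there is 1 library per group. The gap, PC3 minus 22Rv1 in log2 of FPKM + 1, was -0.51 for ACACB and -0.48 for SREBF1, which were higher in treated 22Rv1 and lower in treated PC3. It was 0.57 for FADS1, 0.47 for ACLY and 0.35 for HADHA, which were lower in treated 22Rv1 and higher in treated PC3. In PC3 the sign of ACACB, SREBF1, FADS1, ACLY and HADHA turned under at least 1 scaling or length alternative.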

How the results depend on the processing

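All alternatives were planned, although the members, lists and tests were chosen with earlier results of these data known. In 22Rv1 the count of members at least 2-fold lower was 1 with FPKM sums made equal without mitochondrial and small RNAs, and 0 otherwise. In PC3 that count was 3, became 0 with 5 added and with the length trend removed, and 1 with equal medians. Between untreated lines, 6 members in place of 10 were higher in 22Rv1 with 5 added. For the sets in 22Rv1, equal sums gave medians of -0.57 (synthesis) and -0.23 (lipolysis and oxidation), equal sums without mitochondrial and small RNAs gave -0.60 and -0.27, and removing the length trend gave -0.23 for synthesis and a difference between sets of -0.15. In PC3 the same scalings gave -0.23 and -0.10, and -0.26 and -0.13, equal medians gave 0.0024 and 0.14, and removing the length trend gave -0.055 for synthesis and a difference of 0.014. Equal medians moved all genes by 0.09 and 0.14.

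In the limma fit, 46 genes were called higher and 33 lower. These counts were 18 and 15 with 5 added, 0 and 0 without a filter, 307 and 1266 with equal sums, 314 and 1585 with equal sums without mitochondrial and small RNAs, and 0 and 0 with no replicate block (line not in the model). They were 95 and 33 with equal medians, 20 and 30 with the length trend removed, 27 and 24 with no trend in the prior variance, and 68 and 98 with a 5 FPKM filter. Members called lower were 6 with equal sums and 7 when mitochondrial and small RNAs were left out, and 0 in every other fit; unadjusted, 53 genes and no member were under 0.05 without the line, and 2290 genes without a filter. Over all alternatives the sign held for 25 of 33 members in 22Rv1, 18 of 33 in PC3, 29 of 35 between untreated lines and 28 of 35 in the shared fit. In 22Rv1 the signs of FASN, LPIN1 and MGLL turned with the length trend removed, those of ACADM, ACSS2 and HADHB with equal medians, and those of LIPE and PLIN3 with both equal sums. No library could be left out, as each group has 1. Depth limits the lowest members most, with a counting error of 0.22 for PLIN2 in 22Rv1. The cause of these shifts was not tested.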

Other observations

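In PC3, INSIG1, a known SREBP target, was higher in the treated library while FASN, ACACA and SCD, also known SREBP targets, were lower. SREBF2, which encodes the SREBP of cholesterol synthesis, was at 10.0 and 6.88 FPKM in PC3 and 79.8 and 54.6 in 22Rv1. TECR and HACD3, which act in the same elongation cycle as the ELOVL enzymes, lay on opposite sides of 0 in both lines. TECR was at 74.0 and 120 FPKM in 22Rv1 and 95.9 and 144 in PC3, with a transcript of 1188 bases. HACD3 was at 68.1 and 47.9 FPKM in 22Rv1 and 40.8 and 28.6 in PC3, with a transcript of 3228 bases. SREBF2, TECR and HACD3 were chosen after their values were seen.

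G0S2, an inhibitor of the lipase PNPLA2, was at 40.7 FPKM untreated and 42.3 treated in PC3, and at 0.0714 and 0.245 in 22Rv1. It was likewise chosen after its values were seen.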
